A study of Homo sapiens with 27 samples.

Results

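A set of 47 interferon-stimulated genes and nucleic acid sensors was examined in 2 established human cancer cell lines treated with Compound Kushen Injection (CKI, an injectable mixture of herbal extracts) and chemotherapy. The genes were taken by name from a list drawn up because MX2 rose strongly under doxorubicin in these data, and all 47 were found among the 24566 genes of the deposited count table. RNA was sequenced from 27 libraries in 9 groups of 3, collected 48 h after the start of treatment. A431 cells, an epidermoid carcinoma line, were untreated, given a vehicle control, given CKI at 1.0 mg/ml, given doxorubicin, or given CKI at the same dose plus doxorubicin. MDA-MB-231 cells, a breast adenocarcinoma line, were untreated, given CKI at 1.0 mg/ml, given 5-fluorouracil (5-FU) at 10 ug/ml, or given both. The labels list more than one doxorubicin concentration without assigning them, and they do not say what the vehicle was. No group carries an engineered allele, and nothing in the labels says that replicates came from separate cultures, so p-values measure only the spread between these libraries.

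Cells detect foreign or misplaced RNA and DNA with cytosolic sensors, among them RIGI and IFIH1 for double-stranded RNA and CGAS for DNA. These sensors act through adaptors, such as STING1 in the case of CGAS, to switch on interferon genes. Secreted interferon then signals through its receptors to a complex that holds STAT2 and IRF9, which binds the interferon-stimulated response element (ISRE) in the promoters of a broad set of antiviral genes. Several of the induced proteins are themselves sensors or signalling factors of the same pathway. Doxorubicin is an anthracycline that poisons topoisomerase II on DNA, and 5-FU is a pyrimidine analogue that blocks thymidine synthesis.

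A431 libraries held 17757206 to 21756536 counts each, and those of MDA-MB-231 held 19871048 to 22809339. The 8 keratinocyte lineage markers summed to between 8080 and 10900 CPM (counts scaled to library size) in A431, against 471 to 625 CPM in MDA-MB-231. No replicate pair agreed within sampling noise, and untreated MDA-MB-231 replicate 1 stood apart from its group, with a chi-square per degree of freedom of up to 81.8 against at most 28.3 within the other groups. Values below are CPM after trimmed mean of M-values (TMM) scaling within a cell line, listed in the order of replicates 1, 2 and 3. A gene was called when its Benjamini-Hochberg adjusted p over all genes tested was under 0.05 and its absolute log2 fold change was over 1 in edgeR's quasi-likelihood test.

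**Figure D1:**
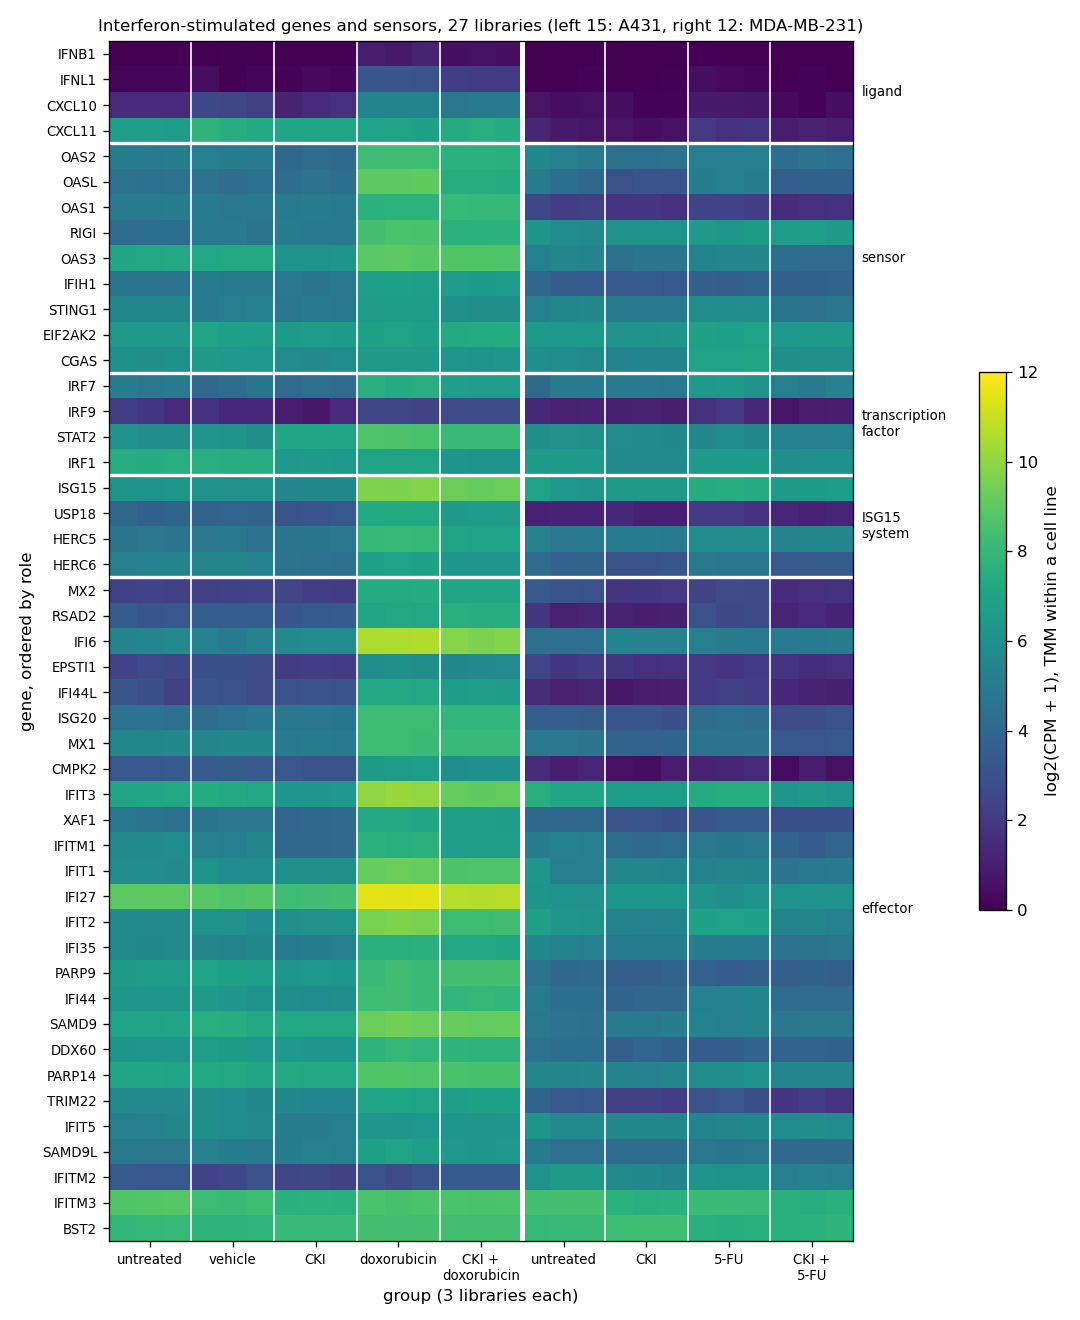
Level of each of the 47 genes in each of the 27 libraries, as log2(CPM + 1), with rows grouped by role and 3 columns to a group. The doxorubicin and CKI plus doxorubicin columns of A431 are brighter for most rows, IFNB1 and IFNL1 stay near the bottom of the scale elsewhere, and no MDA-MB-231 column reaches those levels for IFI6 or IFI27.

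In untreated A431 cells the members spanned a wide range of levels. Per kilobase of transcript, the highest were IFITM3 and BST2 at 415.0 and 248.0 reads per kilobase of transcript in a library scaled like CPM (RPKM), membrane proteins that block virus entry and release. IFI27 followed at 201.0 RPKM and ISG15 at 93.7 RPKM. At the other end MX2 had a mean of 0.98 RPKM, IRF9 0.583 RPKM and IFNL1 0.176 RPKM, and IFNB1 had no count in any untreated A431 library. Under doxorubicin the order changed, with IFI6 highest at 1710.0 RPKM, then IFI27 at 1240.0 RPKM and ISG15 at 1090.0 RPKM, ahead of IFITM3 at 381.0 RPKM. Under CKI plus doxorubicin IFI6 was again highest at 950.0 RPKM, then ISG15 at 768.0 RPKM and IFI27 at 676.0 RPKM.

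MX2 encodes a dynamin-like GTPase that acts against retroviruses, and it lies on chromosome 21 from 42733926 to 42781320 (GRCh37, forward strand), next to its relative MX1. Its level was 4.04, 4.28 and 3.84 CPM in the untreated A431 libraries and 3.84, 4.06 and 4.49 CPM in the vehicle control libraries. Under doxorubicin it was 168, 168 and 170 CPM. The doxorubicin libraries stood far above both sets of controls, with a log2 difference from untreated of 5.43 (SE 0.086). Because MX2 in this comparison led to the choice of the genes, it is given as a description without a test. The same holds for the other members in doxorubicin against untreated cells, where 39 of 47 met both thresholds upward and 0 downward, beside 23% and 14.3% of the 15881 genes tested. The members' median log2 difference was 2.62, against 0.02 over all genes tested. IFI6, a mitochondrial and endoplasmic reticulum protein, went from 39.7, 42.9 and 49 CPM to 1480, 1480 and 1520 CPM. OASL, a catalytically inactive relative of the oligoadenylate synthetases, went from 21.1, 20 and 21.9 CPM to 514, 526 and 542 CPM. IFNL1, a type III interferon, went from 0.121, 0.167 and 0.128 CPM to 7.84, 8.07 and 7.35 CPM, so that none of these genes had overlapping groups.

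The combination gave a test on libraries other than those in which MX2 led to the choice. CKI plus doxorubicin against CKI alone asked what doxorubicin did in A431 cells that also received CKI. In this comparison 41 of the 47 members (87.2%) rose past both thresholds and 0 fell, whereas 16.6% of the 15881 genes tested rose and 9.06% fell. For 46 members every CKI plus doxorubicin library lay above every CKI library, and for 1 member, IRF1, every one lay below, where the shares over all genes were 39.5% and 39%. The median log2 fold change of the members was 2.40 compared to 0.06 over all genes tested. It was 2.38 with IFNB1, which had no count in the CKI libraries, set to its lower bound. IFNB1 and IFNL1 passed the filter on low counts only through the doxorubicin libraries, where they are high, so their difference is given as a description without a test. Of the 45 members that passed with those libraries set aside, 39 (86.7%) rose and 0 fell, beside 7.6% and 10.3% of the 13876 genes that passed in the same way. All 39 members that met the thresholds under doxorubicin alone were among the 41, and the additional members were IFITM2 and IRF9.

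The 10 leukocyte markers summed to 5.97 to 7.85 CPM in the CKI libraries and 7.38 to 8.09 CPM in the CKI plus doxorubicin libraries, and to 8.69 to 9.23 CPM untreated and 11.8 to 14.6 CPM under doxorubicin. Of these markers 9 were under 1 CPM on average in untreated and CKI cells and 7 in both doxorubicin groups. PTPRC, which marks all leukocytes, had a mean of 0 CPM in untreated and CKI cells, 1.27 CPM under doxorubicin and 1.59 CPM under CKI plus doxorubicin. LYZ had a mean of 0.0847 CPM under CKI and 0.544 CPM under CKI plus doxorubicin. PTPRC and LYZ passed the filter only through the doxorubicin libraries, where they are higher, so both are described without a test. CD14 and IL3RA, also among the 4 leukocyte markers tested in this comparison, were not called. The 2 endothelial markers measured, VWF and CDH5, summed to 38.3 to 41.1 CPM under CKI and 43.5 to 45.7 CPM under CKI plus doxorubicin. They moved in opposite directions, with CDH5 at a mean of 9.71 and 28.6 CPM (log2 fold change 1.59, called higher) and VWF at 30.4 and 15.6 CPM (log2 fold change -0.93, not called). Of the 3 fibroblast markers COL1A2 and PDGFRB were under 1 CPM in all A431 groups, while the sum of the 3 was 44.3 to 48.6 CPM under CKI and 54.7 to 61.1 CPM under CKI plus doxorubicin. COL1A2 had a mean of 0.099 and 0.614 CPM in these groups, and PDGFRB 0.0697 and 0.61 CPM. Both passed the filter only through the doxorubicin libraries and are described without a test. COL1A1 was not called. The part of other cells in the result was not tested. In bulk RNA a change in the number of expressing cells and a change in RNA per cell cannot be told apart.

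**Figure D2:**
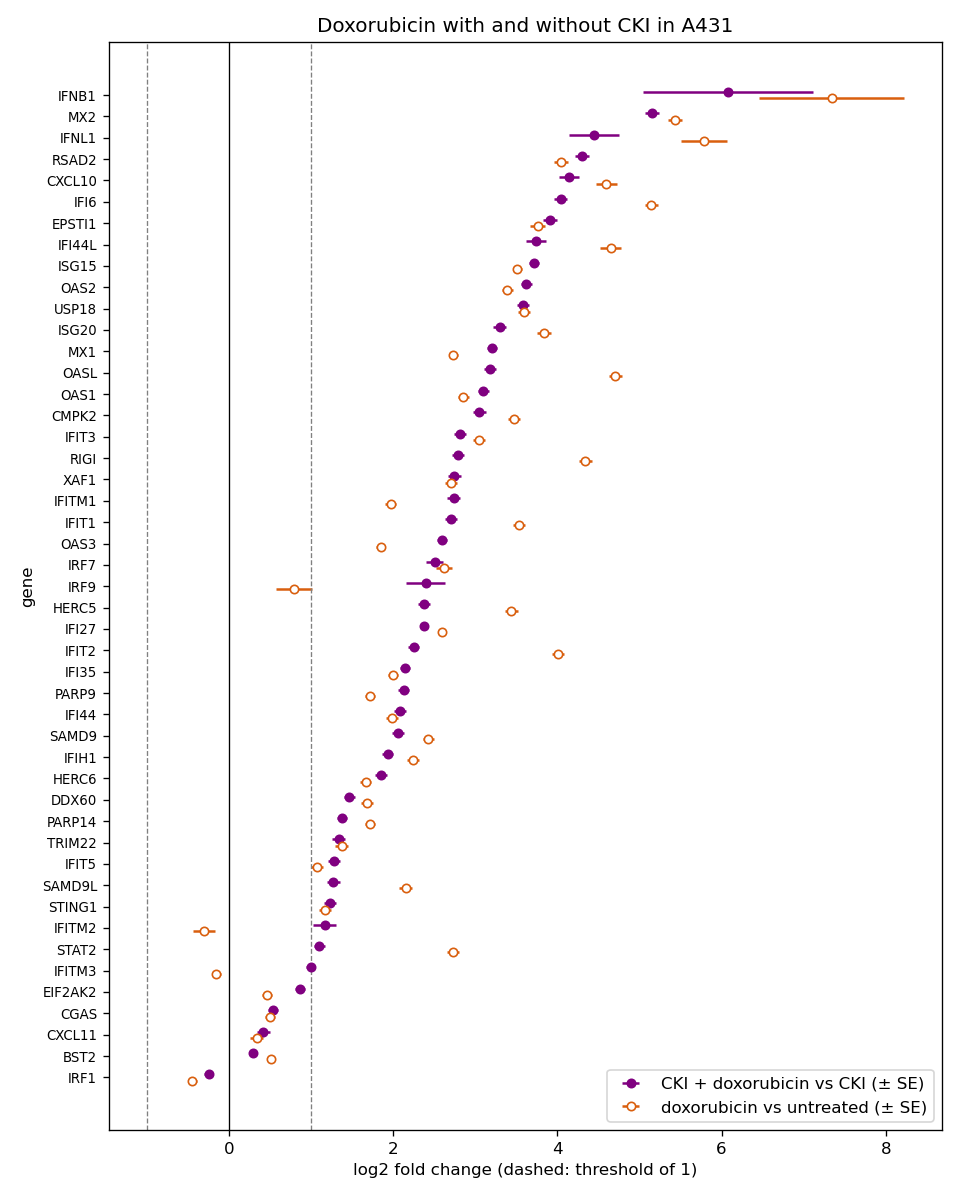
Log2 fold change with SE of each of the 47 genes for CKI plus doxorubicin against CKI (filled) and for doxorubicin against untreated (open), in A431. In the filled series 41 genes lie past the dashed line at 1, and IRF1 lies below 0 in both series; the fitted values of IFNB1 rest on groups without any count and depend on the prior count.

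Of the 4 ligands, CXCL10 was called higher on a filter that did not need the doxorubicin libraries. IFNB1, the main type I interferon of non-immune cells, had no count in the CKI libraries and 9, 10 and 8 counts in the CKI plus doxorubicin libraries, which made it at least 2.91-fold higher against a floor of 3 counts per library. IFNL1 had 2, 5 and 2 counts in the CKI libraries and 80, 69 and 65 in the CKI plus doxorubicin libraries. Every combination library thus held more IFNL1 reads than any CKI library, with a log2 difference of 4.45 (SE 0.30). CXCL10, a chemokine that draws activated T cells, was 1.22, 1.76 and 2.08 CPM in the CKI libraries and 27.2, 30.3 and 29.7 CPM in the CKI plus doxorubicin libraries, a 17.7-fold rise (log2 SE 0.13, adjusted p = 7.7e-18). CXCL11, its neighbour on chromosome 4 and a ligand of the same receptor, was already at 133, 131 and 133 CPM under CKI and reached 167, 183 and 169 CPM, a log2 fold change of 0.42 that passed the adjusted p but not the fold threshold.

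Of the 9 sensors and adaptors, 7 were called higher, with a median log2 fold change of 2.60. RIGI, the sensor of RNA ends, was 31.5, 30.5 and 30.3 CPM under CKI and 207, 205 and 211 CPM under CKI plus doxorubicin (2.79 on the log2 scale, SE 0.072, adjusted p = 4.65e-19). IFIH1, the sensor of long double-stranded RNA, was 27, 23.7 and 26.6 CPM and 96.3, 93.2 and 99.4 CPM. Both sensors therefore rose several-fold without overlap. OAS1, OAS3 and OAS2, which make the oligoadenylates that activate RNase L, lie side by side on chromosome 12 between 113343661 and 113449528 (GRCh37). OAS1 was 29, 32.3 and 30.5 CPM under CKI and 262, 254 and 254 CPM under CKI plus doxorubicin. OAS2 was 15.6, 17.6 and 16.9 CPM and 203, 203 and 197 CPM in the same groups, the largest of the 3 fold changes (12.3-fold). OAS3 was 70.1, 71.6 and 71.9 CPM and 426, 422 and 416 CPM, the smallest of the 3 (6.05-fold). OASL, which strengthens signalling by RIGI, was 18.2, 22 and 19 CPM and 177, 180 and 169 CPM (log2 fold change 3.19, SE 0.072, adjusted p = 4.96e-20). STING1, the adaptor for cytosolic DNA, was 25.3, 28.4 and 28.1 CPM and 64.8, 60.4 and 62.4 CPM, a 2.34-fold rise. The DNA sensor CGAS differed far less, from 54.7, 49.6 and 53.7 CPM to 74.7, 71 and 78.6 CPM (log2 fold change 0.54), and the RNA-activated kinase EIF2AK2 went from 92.2, 94 and 92.4 CPM to 163, 164 and 171 CPM (log2 fold change 0.87). Neither passed the fold threshold, although neither had overlapping groups.

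Of the 4 transcription factors, 3 were called higher. IRF7, which amplifies interferon gene transcription, was 17.3, 20.3 and 18.8 CPM under CKI and 108, 103 and 102 CPM under CKI plus doxorubicin (2.51 on the log2 scale, SE 0.10, adjusted p = 1.42e-15). STAT2 was 133, 132 and 137 CPM and 280, 278 and 284 CPM, a 2.15-fold rise. IRF9, its partner, had few reads, with 0.978, 0.702 and 1.76 CPM and 5.85, 5.9 and 5.84 CPM (2.40 on the log2 scale, SE 0.24, adjusted p = 7.13e-09), and its annotated exons overlap another coding entry, so its level is uncertain. IRF1, a factor more responsive to interferon gamma, was 84.2, 89.8 and 82.1 CPM under CKI and 72.8, 68.7 and 69.9 CPM under CKI plus doxorubicin. It was the sole member whose libraries were all lower in the combination, by -0.24 on the log2 scale, which did not reach the fold threshold.

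All 4 genes of the ISG15 system were called higher, with a median log2 fold change of 2.98. ISG15, a ubiquitin-like protein that is attached to other proteins, was 45.5, 45.9 and 48.2 CPM under CKI and 606, 580 and 608 CPM under CKI plus doxorubicin (13.1-fold, log2 SE 0.060, adjusted p = 3.78e-22). USP18, the protease that removes ISG15 and dampens the type I interferon receptor, was 7.63, 8.07 and 8.81 CPM and 93.4, 94.6 and 99.2 CPM (12-fold). HERC5, the ligase that attaches ISG15, was 23.7, 24.6 and 25.8 CPM and 128, 125 and 124 CPM (5.2-fold). HERC6, a relative of HERC5 and its neighbour on chromosome 4, was 23.8, 22.1 and 20.3 CPM and 80.2, 76.5 and 77.6 CPM (3.62-fold). The conjugated protein thus rose more than either ligase-family gene, as fold change.

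Of the remaining 26 members, effectors and other induced genes, 24 were called higher, with a median log2 fold change of 2.31. MX2 had the largest fold change among members with counts in every library of both groups, from 4.69, 3.61 and 3.36 CPM under CKI to 136, 137 and 137 CPM under CKI plus doxorubicin (35.7-fold, log2 SE 0.085). A rise of MX2 under doxorubicin led to the choice of genes, so this difference is given without a test, although MX2 is in the counts of members called. MX1, the GTPase beside it that blocks influenza viruses, was 30.2, 31.4 and 30.4 CPM and 282, 269 and 276 CPM (9.2-fold). The 4 IFIT genes, which bind viral RNA, lie together on chromosome 10 between 91043451 and 91181362 (GRCh37). IFIT1 was 63.7, 63.3 and 65 CPM under CKI and 405, 408 and 408 CPM under CKI plus doxorubicin. IFIT2 was 64.4, 65.9 and 68 CPM and 303, 302 and 318 CPM. IFIT3 was 78.4, 80.8 and 84.4 CPM and 577, 545 and 557 CPM. These 3 rose by 6.51-, 4.77- and 7.06-fold, against 2.43-fold for IFIT5, which was 32.8, 33.5 and 34.7 CPM and 79.2, 81.4 and 79.3 CPM. IFIT2 and IFIT3 share exon bases with LIPA on the opposite strand, and the IFIT genes resemble each other in sequence, so reads may be split between them.

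RSAD2 (viperin, which makes a chain-terminating nucleotide) and CMPK2 (a mitochondrial nucleotide kinase) lie head to head on chromosome 2 with overlapping exons. RSAD2 was 7.82, 9.53 and 10.4 CPM under CKI and 181, 176 and 175 CPM under CKI plus doxorubicin (19.7-fold, log2 SE 0.087, adjusted p = 1.11e-20). CMPK2 was 8.46, 7.47 and 7.47 CPM and 61.8, 63.3 and 64.8 CPM (8.29-fold). ISG20, an exonuclease for single-stranded RNA, was 25.3, 25.1 and 24.1 CPM and 237, 241 and 238 CPM (9.83-fold). IFI6 was 51.6, 53.5 and 54.1 CPM and 898, 803 and 864 CPM (16.5-fold, log2 SE 0.078, adjusted p = 5.14e-21), and in counts per kilobase it was the most abundant member of the combination. EPSTI1, first described as a stromal-interaction gene, was 3.37, 3.51 and 3.42 CPM and 47.9, 49.9 and 54 CPM (15.1-fold). IFI44L was 7.33, 7.82 and 7.8 CPM and 97.7, 103 and 99.2 CPM (13.4-fold), while its neighbour on chromosome 1, IFI44, was 61.2, 56.4 and 59 CPM and 240, 257 and 236 CPM (4.25-fold). IFI27, a small mitochondrial protein with the highest CPM of all members, was 312, 322 and 326 CPM and 1630, 1590 and 1650 CPM (5.19-fold). XAF1, which promotes apoptosis by opposing XIAP, was 14.3, 15.6 and 16.2 CPM and 103, 100 and 99.7 CPM (6.71-fold). IFI35 was 30.8, 33.3 and 34.2 CPM and 145, 144 and 136 CPM (4.42-fold). The groups of these genes were separate in every case.

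The other effectors had smaller fold changes than MX2. PARP9 was 79.6, 82.1 and 78 CPM under CKI and 338, 339 and 347 CPM under CKI plus doxorubicin, and PARP14, another ADP-ribosyltransferase family member, was 149, 139 and 144 CPM and 370, 367 and 363 CPM. SAMD9 was 140, 143 and 144 CPM and 593, 563 and 580 CPM, and its relative SAMD9L, also a restriction factor for poxviruses, was 33.2, 36.1 and 35.6 CPM and 83.6, 81.4 and 82.8 CPM. The helicase DDX60 was 82.3, 80.4 and 77 CPM and 219, 216 and 213 CPM, and TRIM22, a ubiquitin ligase, was 46.5, 44.6 and 43.2 CPM and 103, 117 and 113 CPM. These 6 genes rose between 2.42-fold (SAMD9L) and 4.37-fold (PARP9). The IFITM genes, which block virus entry at membranes, did not move alike. IFITM1 was 15, 15.3 and 17 CPM under CKI and 103, 103 and 101 CPM under CKI plus doxorubicin (6.67-fold). IFITM2 was 4.65, 4.86 and 4.11 CPM and 10.2, 9.92 and 9.8 CPM, a log2 fold change of 1.17 that fell to 0.93, under the threshold, with offsets for GC content and length. IFITM3 was 193, 200 and 198 CPM and 387, 381 and 384 CPM, with a log2 fold change of 1.00 just short of the threshold. The 3 are near-identical in parts, so their levels are uncertain. BST2 (tetherin), high in every group, was 269, 277 and 276 CPM and 332, 328 and 327 CPM and was not called.

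The promoters of members that moved together are shown next, since the ISRE is the binding site of the STAT and IRF factors above. RefSeq promoter sequences (GRCh38.p14) were found for 37 of the 47 members, and the 250 bases before the start were searched on both strands for the ISRE core and for the core of the gamma-activated site. The ISRE core was spelled GAAA, any 2 bases, GAAA, and the gamma-activated site core TTC, any 3 bases, GAA. Overlapping matches were counted. The ISRE core was present in 21 of 37 members (56.76%), compared to 3.02% of 35116 promoters of the same length. The gamma-activated site core was present in 12 of 37 (32.43%) compared to 6.57%. Only the first listed start of each member was searched, so a core at another start would be missed. The sequences below are those of the 4 members with the largest fold changes that hold the ISRE core, with its letters in capitals, and of RSAD2, which was called but holds neither core in this window. Other starts of RSAD2 were not searched.
IFNL1, chr19:39296157-39296406, forward strand: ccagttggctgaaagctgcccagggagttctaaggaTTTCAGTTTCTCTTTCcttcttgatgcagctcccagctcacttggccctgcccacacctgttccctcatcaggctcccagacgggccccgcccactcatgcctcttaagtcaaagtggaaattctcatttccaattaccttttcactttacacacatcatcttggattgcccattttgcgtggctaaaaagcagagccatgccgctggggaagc
CXCL10, chr4:76023498-76023747, reverse strand: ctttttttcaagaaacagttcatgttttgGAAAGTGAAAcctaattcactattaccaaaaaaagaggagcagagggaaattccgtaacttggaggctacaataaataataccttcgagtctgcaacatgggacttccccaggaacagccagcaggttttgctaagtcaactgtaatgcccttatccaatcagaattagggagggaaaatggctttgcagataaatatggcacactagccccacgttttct
IFI6, chr1:27672193-27672442, reverse strand: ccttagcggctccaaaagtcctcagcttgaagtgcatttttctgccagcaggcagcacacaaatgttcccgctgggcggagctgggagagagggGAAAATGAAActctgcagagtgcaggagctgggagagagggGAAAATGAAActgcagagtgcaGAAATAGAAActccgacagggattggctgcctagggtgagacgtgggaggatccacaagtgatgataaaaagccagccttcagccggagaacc
EPSTI1, chr13:42992242-42992491, reverse strand: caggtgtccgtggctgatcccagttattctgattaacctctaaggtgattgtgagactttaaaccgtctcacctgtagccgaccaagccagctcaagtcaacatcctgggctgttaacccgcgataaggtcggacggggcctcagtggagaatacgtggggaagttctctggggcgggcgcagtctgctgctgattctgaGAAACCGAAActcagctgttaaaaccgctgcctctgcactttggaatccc
RSAD2, chr2:6865635-6865884, forward strand: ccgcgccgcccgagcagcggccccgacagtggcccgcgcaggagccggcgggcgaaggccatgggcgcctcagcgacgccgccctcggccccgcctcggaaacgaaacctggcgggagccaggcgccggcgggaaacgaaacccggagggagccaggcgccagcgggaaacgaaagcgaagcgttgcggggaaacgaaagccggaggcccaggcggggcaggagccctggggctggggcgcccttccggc
IFI6 carries 3 matches, IFNL1 2 that overlap, and CXCL10 and EPSTI1 1 each. In the EPSTI1 promoter the match starts 50 bases before the start site, and in CXCL10 221 bases before it. Members with the ISRE core had a median log2 fold change of 2.60 in CKI plus doxorubicin against CKI, with 19 of 21 called, and those without it had 2.27, with 13 of 16 called. IFNL1 is among the 19 and IFNB1 among the 13, although both are given above without a test. The difference between members with and without a match was not tested. BST2 and IFITM3 hold 2 matches each and were not called. A match is a string of letters and was not tested as a binding site.

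Other genes of the pathway were followed in the same comparison from 3 lists. Of 22 other sensors, adaptors and nucleases tested, 5 rose and 0 fell, with a median of 0.69, and 3 of the 20 (15%) that passed the filter without the doxorubicin libraries rose, beside 7.6% of all genes that did. ZBP1, a sensor of left-handed nucleic acid, and TLR7, an endosomal RNA receptor, passed only through those libraries and are described without a test. ZBP1 had 4, 4 and 0 counts under CKI and 183, 195 and 166 under CKI plus doxorubicin. SAMHD1, a nucleotide hydrolase, had 727 to 800 counts and 3003 to 3543 counts. TLR7 had 2, 0 and 0 counts under CKI and 12, 10 and 21 in the combination, higher in every library. Of 51 other interferon-stimulated genes tested, 22 rose and 2 fell, with a median of 0.73, and of the 49 that passed without the doxorubicin libraries 20 (40.8%) rose and 2 (4.08%) fell. CXCL9 passed only through those libraries. The 3 largest differences were in CXCL9, a chemokine of the CXCL10 family, from 1 to 4 counts to 26 to 40 counts, IDO1, which degrades tryptophan, from 73 to 81 counts to 969 to 1153 counts, and LAMP3, from 185 to 203 counts to 2062 to 2267 counts. The complement protease C1R and the membrane protein LY6E fell, by 1.40 and 1.04 on the log2 scale. Of 20 other interferon genes 3 passed the filter, of which IFNL2 and IFNL3 passed only through the doxorubicin libraries. IFNL2 had no count in the CKI libraries and 27, 30 and 37 in the CKI plus doxorubicin libraries (at least 11.57-fold), and IFNL3 had 0, 1 and 0 and 35, 36 and 33. These near-identical type III interferon genes cannot be told apart with certainty.

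**Figure D3:**
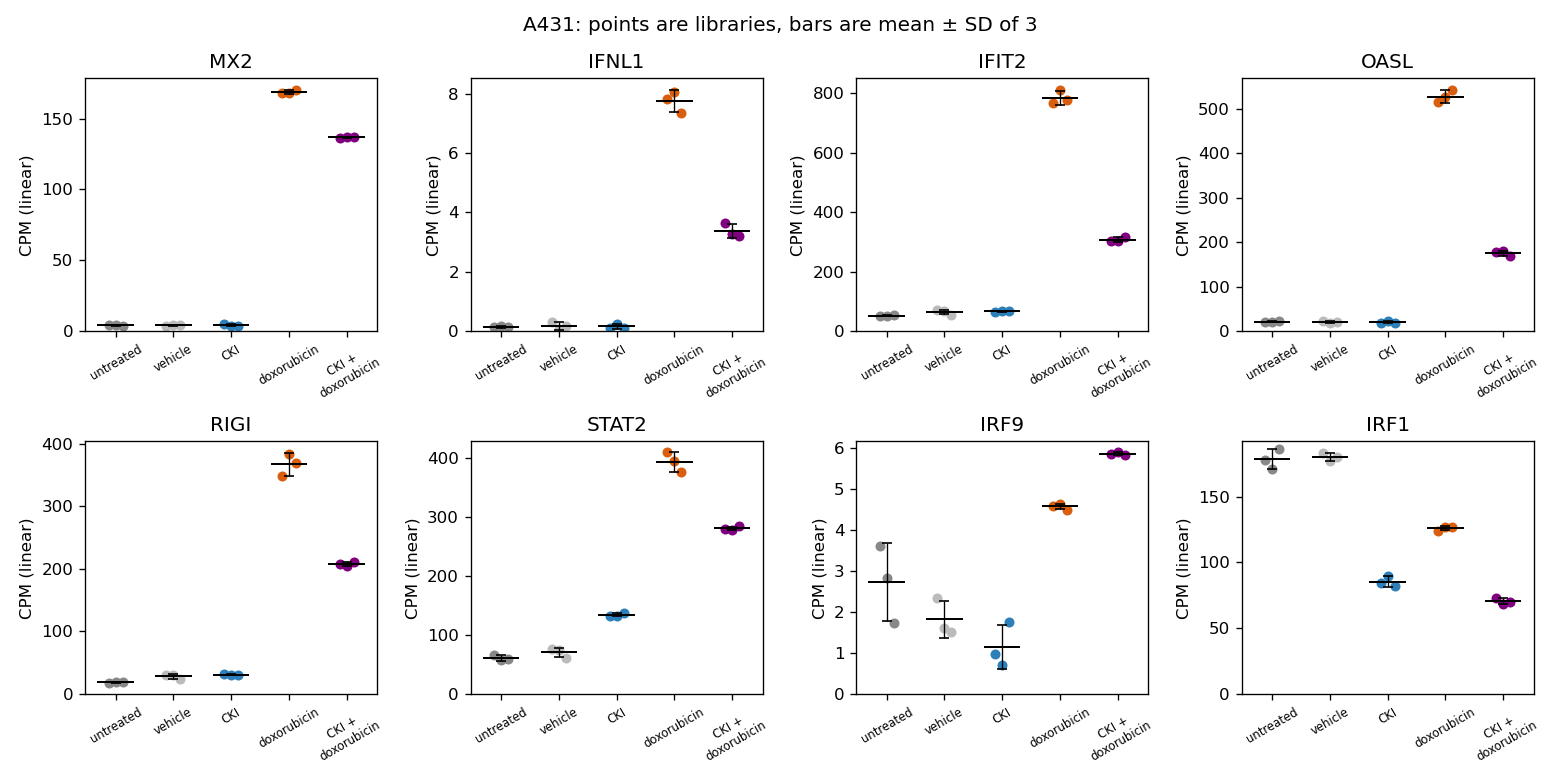
CPM (linear axis from 0) of 8 genes in the 5 A431 groups, with a point for each library and bars for the mean and SD of 3. MX2, IFNL1, IFIT2, OASL, RIGI and STAT2 are highest under doxorubicin and lower with CKI added, IRF9 is highest with CKI added, and IRF1 is highest in untreated and vehicle cells.

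CKI plus doxorubicin against doxorubicin alone asked what CKI changed in doxorubicin-treated A431 cells. This comparison shares the doxorubicin libraries with the one that led to the choice of genes, so MX2 is given without a test: it was 168, 168 and 170 CPM under doxorubicin and 136, 137 and 137 CPM with CKI added, lower in every library. Of the 47 members 5 (10.6%) fell past both thresholds and 0 rose, where 8.03% of all genes tested fell and 6.89% rose, so the share called was close to the background. With the libraries of doxorubicin alone set aside, where the fallen members are higher, IFNL1 still passed the filter and IFNB1 did not. Without IFNB1 4 of 46 (8.7%) fell, beside 6.99% of the genes that passed in the same way. The median log2 fold change was -0.49, compared to 0.03 over all genes. By adjusted p alone 35 members were lower and 6 higher, where 29.8% of all genes were lower and 33.8% higher, and 37 members had every CKI plus doxorubicin library below every doxorubicin library, where 32.4% of all genes did. The difference was therefore mostly smaller than the fold threshold.

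OASL fell the most, from 514, 526 and 542 CPM under doxorubicin to 177, 180 and 169 CPM with CKI added (3.05-fold lower, log2 SE 0.063, adjusted p = 1.17e-15). IFIT2 went from 767, 812 and 777 CPM to 303, 302 and 318 CPM (2.59-fold lower, log2 SE 0.065, adjusted p = 3.18e-14). HERC5 went from 250, 261 and 254 CPM to 128, 125 and 124 CPM (2.06-fold lower). Both interferon ligands were also lower: IFNL1 went from 7.84, 8.07 and 7.35 CPM to 3.66, 3.26 and 3.22 CPM (2.32-fold lower, log2 SE 0.15, adjusted p = 2.12e-07). IFNB1 had 22, 16 and 26 counts under doxorubicin and 9, 10 and 8 with CKI added, a difference given without a test. With offsets for GC content and length the log2 fold change of IFNL1 was -0.95, short of the threshold. Just under the fold threshold were IFITM1, with 205, 190 and 210 CPM and 103, 103 and 101 CPM, and IFIT3, with 1040, 1130 and 1050 CPM and 577, 545 and 557 CPM. RIGI, at 348, 384 and 369 CPM and 207, 205 and 211 CPM, IFI27, at 2900, 2860 and 2940 CPM and 1630, 1590 and 1650 CPM, and IFI6, at 1480, 1480 and 1520 CPM and 898, 803 and 864 CPM, were also lower by adjusted p alone.

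A smaller set of members was higher with CKI added. By adjusted p alone these were EIF2AK2, IFITM2, CXCL11, RSAD2, OAS1 and PARP9, with log2 fold changes between 0.18 and 0.51. EIF2AK2 was 114, 119 and 111 CPM under doxorubicin and 163, 164 and 171 CPM with CKI. OAS1 was 206, 213 and 212 CPM and 262, 254 and 254 CPM, in contrast to OAS2 at 310, 310 and 307 CPM and 203, 203 and 197 CPM. RSAD2 was 133, 152 and 144 CPM and 181, 176 and 175 CPM, in contrast to CMPK2 beside it at 92, 98.2 and 101 CPM and 61.8, 63.3 and 64.8 CPM. Neighbouring members of one gene cluster thus lay on opposite sides of 0 in this comparison. For IFIT5, IFITM3 and DDX60 the groups overlapped.

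**Figure D4:**
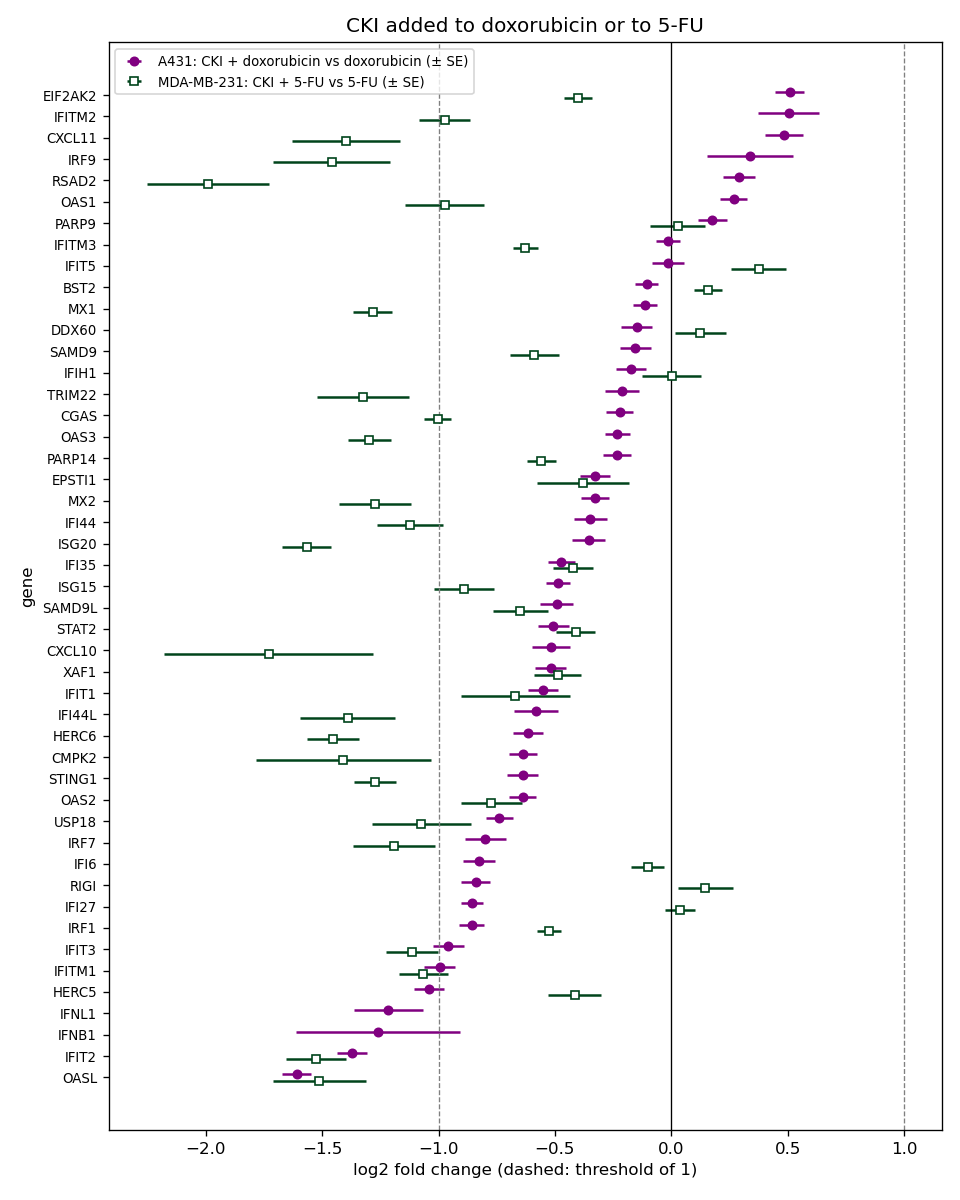
Log2 fold change with SE of each member when CKI was added to doxorubicin in A431 (filled circles) and to 5-FU in MDA-MB-231 (open squares, 45 genes tested). The filled circles reach past -1 for 5 genes and the open squares for 21, and no point reaches 1.

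Whether CKI changed the doxorubicin response was tested with the interaction term, that is the doxorubicin log2 fold change in the presence of CKI minus that in its absence. It draws on the same untreated and doxorubicin libraries as the choice of genes. Of the 47 members 6 (12.8%) were called lower and 3 (6.38%) higher. These shares were close to the 10.9% and 8.56% of all genes. The median was -0.04, against 0.04 over all genes. The rise was smaller with CKI for IFIT2 (interaction -1.76, SE 0.096, adjusted p = 9.1e-13), STAT2 (-1.63, SE 0.097, adjusted p = 3.79e-12), RIGI (-1.56, SE 0.10), OASL (-1.52, SE 0.10), IFI6 (-1.10, SE 0.10) and HERC5 (-1.06, SE 0.10). For STAT2 the starting level differed, at 66.8, 57.9 and 59.6 CPM untreated and 133, 132 and 137 CPM under CKI, as did the end level, at 410, 394 and 376 CPM under doxorubicin and 280, 278 and 284 CPM with both. The interaction was positive for IRF9 (1.60, SE 0.34, adjusted p = 0.000288), IFITM2 (1.47, SE 0.20) and IFITM3 (1.15, SE 0.074), which were lower under CKI than in untreated cells and about level under the 2 doxorubicin groups in the case of IFITM3, at 393, 360 and 393 CPM and 387, 381 and 384 CPM. When the vehicle control replaced untreated cells, 5 members were called, all lower, where 21.1% of all genes were called in either direction. The 3 positive interactions no longer passed. The interaction of IFNB1 could not be estimated, since neither reference group had a count.

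CKI alone was compared with untreated A431 cells and with the vehicle control. Against untreated cells 1 member rose and 4 fell, beside 12% and 10.4% of all genes tested, and against the vehicle control 0 rose and 4 fell, beside 11.3% and 8.22%. IFITM1 fell in both comparisons, with 52.8, 51.5 and 56.2 CPM untreated, 35.9, 35.3 and 42.5 CPM with vehicle and 15, 15.3 and 17 CPM under CKI (log2 fold change -1.76 against untreated, SE 0.078, adjusted p = 4.14e-15). IRF1 also fell in both, with 178, 171 and 186 CPM untreated, 183, 177 and 180 CPM with vehicle and 84.2, 89.8 and 82.1 CPM under CKI (log2 fold change -1.06, SE 0.054, adjusted p = 5.54e-14). STAT2 rose against untreated cells (1.13, SE 0.071), and against the vehicle control at 76.4, 73.8 and 61.7 CPM its log2 fold change was 0.93, under the threshold. IFITM3 fell against untreated cells (-1.16), with 427, 445 and 451 CPM untreated, 299, 288 and 312 CPM with vehicle and 193, 200 and 198 CPM under CKI. IRF9 was called lower than untreated although its libraries overlapped, with 3.62, 2.84 and 1.73 CPM and 0.978, 0.702 and 1.76 CPM. OAS3, at 141, 155 and 156 CPM with vehicle, and CXCL10, at 5.11, 4.63 and 3.76 CPM with vehicle, fell against the vehicle control alone. The vehicle itself raised CXCL10 compared to untreated cells at 1.81, 1.72 and 1.73 CPM (log2 fold change 1.34, SE 0.17, adjusted p = 3.34e-06), the single member called there, where 1.05% of genes rose and 1.5% fell. The fall in CXCL10 against the vehicle control was therefore measured from a raised level.

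Between the resting lines 41.5% of all genes tested were called, and the members called were mostly higher in A431. The untreated A431 libraries also entered the comparison that led to the choice of genes, so MX2 is left out of the counts here. In untreated A431 against untreated MDA-MB-231 cells 18 members were higher and 2 lower of 44, beside 19.7% and 21.8% of all 14181 genes tested. CXCL11 differed the most, at 101, 104 and 96.4 CPM in A431 (scaled within that line) and 1.33, 0.841 and 0.65 CPM in MDA-MB-231, with a log2 difference of 6.69 (SE 0.20, adjusted p = 9.6e-08). USP18, OAS1, IFI27 and CMPK2 were also higher in A431, by 10.9-, 7.01-, 6.96- and 6.51-fold. The members lower in A431 were IFITM2 (9.37-fold) and RIGI (3.26-fold). MX2 was 4.04, 4.28 and 3.84 CPM in A431 and 9.5, 7.57 and 7.25 CPM in MDA-MB-231, each scaled within its line. IFNB1 had no count in any MDA-MB-231 library, and IFNL1 was at most 0.368 CPM there, so neither was tested in that line.

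In MDA-MB-231 cells 5-FU, the other chemotherapy, was compared with untreated cells. Of 45 members tested 6 rose and 0 fell, where 6.01% of the 13999 genes tested rose and 7.31% fell, and the median log2 fold change was 0.16. RSAD2 was 2.88, 1.17 and 1.4 CPM untreated and 6.76, 4.89 and 5.52 CPM under 5-FU (1.68 on the log2 scale, SE 0.26, adjusted p = 0.00014). IRF7 was 17, 29.2 and 30.7 CPM and 82.1, 85.2 and 71.1 CPM (1.64, SE 0.18, adjusted p = 9.86e-06). CGAS, which was not called under doxorubicin in A431, was 57.1, 54.9 and 51.4 CPM and 125, 125 and 130 CPM (1.23, SE 0.058, adjusted p = 1.43e-08). CXCL11, IFI44L and USP18 also rose, by 2.79-, 2.44- and 2.3-fold, from levels of at most 1.87 CPM. MX2 was 9.5, 7.57 and 7.25 CPM untreated and 4.51, 5.62 and 5.23 CPM under 5-FU, lower in every library. In untreated replicate 1, the library that stood apart, several members were higher than in the other untreated libraries, such as IFIT1 at 74.3, 35.4 and 34.6 CPM and OASL at 32.3, 19.3 and 15.6 CPM. Without that library 9 members rose under 5-FU and 0 fell, while the share of all genes called in either direction went from 13.3% to 15%.

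CKI alone in MDA-MB-231 cells lowered 7 of 45 members and raised 1, compared to 2.21% and 3.76% of all genes. The median was -0.59, against -0.01 over all genes. MX2 fell from 9.5, 7.57 and 7.25 CPM to 2.54, 2.82 and 3.03 CPM (log2 fold change -1.52, SE 0.14, adjusted p = 1.06e-05), and OASL from 32.3, 19.3 and 15.6 CPM to 6.87, 7.98 and 8.07 CPM (-1.54, SE 0.21, adjusted p = 0.000166). TRIM22, CMPK2, IFIT2, XAF1 and IFITM1 fell by 2.75-, 2.36-, 2.16-, 2.14- and 2.01-fold. IFI6 rose from 20.4, 19.8 and 20.2 CPM to 41.5, 39.5 and 39.4 CPM, a log2 fold change of 1.00 at the edge of the threshold. Without untreated replicate 1, 6 members fell and 1 rose, beside 6.52% of all genes called in either direction. IFIT2 was then at -0.90, short of the threshold. IFITM1 was the member called lower under CKI alone in both lines, which is 1 of 4 in A431 (25%) and 1 of 7 in MDA-MB-231 (14.3%).

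**Figure D5:**
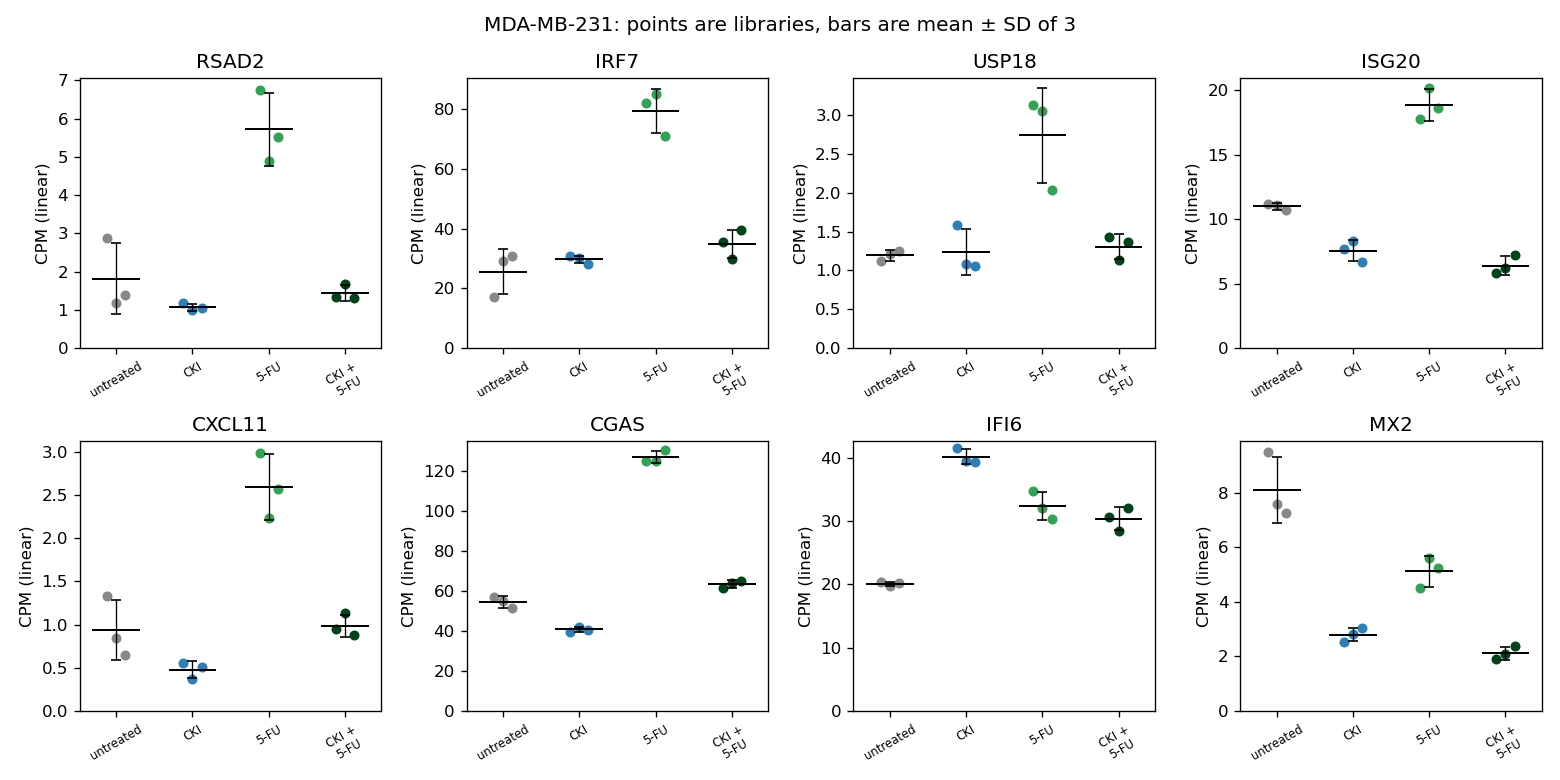
CPM (linear axis from 0) of 8 genes in the 4 MDA-MB-231 groups, with a point for each library and bars for the mean and SD of 3. RSAD2, IRF7, USP18, ISG20, CXCL11 and CGAS are highest under 5-FU and lower when CKI was added, whereas IFI6 is highest under CKI and MX2 in untreated cells.

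CKI added to 5-FU gave the broadest decrease in this line. Of 45 members tested 21 fell and 0 rose past both thresholds, where 4.51% of all genes tested fell and 5.26% rose, and the median log2 fold change was -0.97 compared to 0.01 over all genes. CXCL10 passed the filter only through the 5-FU libraries, where it is high, and without it 20 of 44 (45.5%) fell, beside 3.87% of the genes that passed in the same way. For 37 members every CKI plus 5-FU library lay below every 5-FU library, where 33.5% of all genes did. RSAD2 fell from 6.76, 4.89 and 5.52 CPM under 5-FU to 1.33, 1.67 and 1.31 CPM with CKI added (3.98-fold, log2 SE 0.26, adjusted p = 6.47e-05). ISG20 fell from 17.8, 20.2 and 18.6 CPM to 5.81, 6.19 and 7.19 CPM (2.96-fold, log2 SE 0.10, adjusted p = 3.56e-07). IFIT2 and OASL, which also fell when CKI was added to doxorubicin in A431, went from 114, 118 and 115 CPM to 39.9, 42.9 and 38.2 CPM and from 32.8, 36.4 and 33.5 CPM to 11.5, 12.3 and 12.3 CPM. These 2 genes are 40.0% of the 5 members that fell in A431 and 9.5% of the 21 in MDA-MB-231. The difference between the lines was not tested.

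The called members came from every role. Among the sensors, CGAS fell from 125, 125 and 130 CPM to 61.4, 63.8 and 64.9 CPM and STING1 from 57.4, 57.7 and 57.4 CPM to 24.4, 22.3 and 24.9 CPM (2.01- and 2.42-fold), and OAS3 by 2.46-fold. Among the transcription factors IRF7 fell from 82.1, 85.2 and 71.1 CPM to 35.4, 30 and 39.4 CPM and IRF9 from 2.35, 3 and 1.65 CPM to 0.619, 0.904 and 1.02 CPM. Of the chemokines CXCL11 fell from 2.99, 2.23 and 2.57 CPM to 0.952, 1.13 and 0.875 CPM, and CXCL10, given without a test, was 0.828, 0.823 and 0.726 CPM and 0.238, 0.0904 and 0.389 CPM. In the ISG15 system HERC6 and USP18 fell, by 2.74- and 2.11-fold, while ISG15 itself went from 170, 177 and 164 CPM to 87.5, 93.1 and 96.6 CPM, short of the threshold (-0.89 on the log2 scale). The remaining called members were CMPK2, IFI44L, TRIM22, MX1, MX2, IFI44, IFIT3 and IFITM1, with decreases between 2.09- and 2.66-fold. RIGI did not follow them, at 85.5, 79.6 and 92.3 CPM under 5-FU and 95.8, 102 and 88.3 CPM with CKI added.

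Against CKI alone, CKI plus 5-FU raised 1 member, CXCL11, and lowered 0, beside 1.26% and 2.54% of all genes. CXCL11 was 0.56, 0.376 and 0.505 CPM under CKI and 0.952, 1.13 and 0.875 CPM under CKI plus 5-FU (1.03 on the log2 scale, SE 0.31, adjusted p = 0.0189), a few reads per library. The interaction of CKI and 5-FU was called lower for 6 members and higher for 0, beside 3.81% and 3.04% of all genes. IRF7 (-1.41, SE 0.25, adjusted p = 0.00139) and ISG20 (-1.03, SE 0.15, adjusted p = 0.000371) responded less to 5-FU when CKI was present. IFI6 (-1.10, SE 0.10, adjusted p = 1.84e-05) went under 5-FU alone from 20.4, 19.8 and 20.2 CPM to 34.8, 32.1 and 30.4 CPM, and was lower with both, at 30.7, 28.4 and 32 CPM, than under CKI alone, at 41.5, 39.5 and 39.4 CPM. RSAD2, IRF9 and USP18 were also called, at low levels, with adjusted p between 0.0204 and 0.0409. The count of 6 fell to 3 without 5-FU replicate 1, CKI replicate 1, or CKI plus 5-FU replicate 1 or 2, and that of CKI plus 5-FU against CKI fell to 0 without CKI replicate 2 or CKI plus 5-FU replicate 2.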

How the data were processed

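RNA-seq was analysed from 27 libraries, 15 of A431 and 12 of MDA-MB-231, in groups taken from the sample labels. The deposited table holds whole-number, unnormalized read counts, with a row for each gene and 1 column per library. Per the labels, reads were trimmed with Trim Galore 0.3.7 and aligned to hg19 with STAR 2.5.3a. The counting tool, the annotation and the use of strand are not given in the sources used here, so overlapping and near-identical genes are uncertain. Counts of all rows entered the fits as deposited, and total counts per library ran from 17757206 to 22809339.

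Symbols came from a RefSeq table (GRCh38.p14), promoters from RefSeq on the same build, and gene positions, transcript lengths and GC content from an annotation of GRCh37. The 47 members, the other gene lists and the tests were chosen with earlier results of these data known. A list of receptor and signalling genes is not reported here. Any of the 47 could be named, and of the other lists at most the 3 called genes of largest change in each direction.

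Tests used edgeR 4.0.16 in R 4.3.3 with TMM factors, filterByExpr, glmQLFit and glmQLFTest over all groups of a cell line, with p-values adjusted by Benjamini-Hochberg over all genes tested. A gene was called when its log2 fold change was beyond 1 in either direction at an adjusted p under 0.05. The SE is the log2 fold change divided by the square root of F. The fit was tested on simulated counts. A fold against libraries without counts was bounded with a floor of 3 counts per library, which covers counting error only. Fold changes of genes with a level near 0 depend on the prior count. Same-numbered libraries were checked for pairing by the correlation of their deviations from the group means (log2 CPM, prior count 2). It was over 0.1 for 4 of 30 pairs in A431 and 4 of 18 in MDA-MB-231, so the numbers were not taken as pairs.

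Alternatives were DESeq2 1.42.0, RLE factors, library size alone, no filter, at least 10 counts in every library, the compared groups alone, adjusted p alone, the vehicle control as reference, offsets for GC content and length (lowess span 0.3), the replicate block, both together, and leaving out each library.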

Additional observations from a re-analysis of the deposited data

Results flagged for a closer look

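The response to doxorubicin in A431 cells differed with and without CKI for 9 of 47 members. This was judged by the interaction term of edgeR's quasi-likelihood fit (log2 scale, adjusted p under 0.05 over all genes, size over 1). The shares called lower (12.8%) and higher (6.38%) were close to the 10.9% and 8.56% of all genes tested. The response was lower in the presence of CKI for IFIT2 (-1.76), STAT2 (-1.63), RIGI (-1.56), OASL (-1.52), IFI6 (-1.10) and HERC5 (-1.06). It was higher for IRF9 (1.60), IFITM2 (1.47) and IFITM3 (1.15). When the vehicle control served as the reference, the values of IRF9, IFITM2 and IFITM3 were 1.00, 0.75 and 0.58, and that of RIGI was -0.99, so these 4 no longer passed the size threshold. The response to 5-FU in MDA-MB-231 cells was lower in the presence of CKI for 6 of 45 members and higher for 0. Over all genes tested the shares were 3.81% and 3.04%. The 6 members were IRF7 (-1.41), RSAD2 (-1.26), IRF9 (-1.19), USP18 (-1.13), IFI6 (-1.10) and ISG20 (-1.03). IFI6 and IRF9 appear for both lines, IFI6 with the same sign and IRF9 with opposite signs, and the difference between the lines was not tested.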

How the results depend on the processing

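Of the values of called members under the alternatives, 2664 kept their direction and side of the threshold, 90 kept their direction but missed the threshold, and none reversed. These values include adjusted p alone, which a called member passes by definition. They also include doxorubicin against untreated, which is given above as a description. A call is said to hold when it passed in every alternative that tested the gene. With at least 10 counts in every library IFNB1 and IFNL1 were not tested in A431, so that alternative says nothing of them. In CKI plus doxorubicin against CKI 40 of the 41 calls held, and in CKI plus doxorubicin against doxorubicin 4 of 5. Fewer held elsewhere: 2 of 5 for CKI against untreated A431, 1 of 4 for CKI against the vehicle control, 5 of 9 for the CKI by doxorubicin interaction, 4 of 8 for CKI against untreated MDA-MB-231, 18 of 21 for CKI plus 5-FU against 5-FU, 2 of 6 for the CKI by 5-FU interaction and 0 of 1 for CKI plus 5-FU against CKI, while 6 of 6 held for 5-FU against untreated, 1 of 1 for the vehicle control against untreated and 18 of 21 between the lines. By adjusted p alone the counts, each with the share of all genes tested that passed, were 41 (63.6%) for CKI plus doxorubicin against doxorubicin, 31 (67%) for CKI against untreated A431, 32 (65%) for CKI against the vehicle control, 26 (42.5%) for the vehicle control against untreated, 29 (57.4%) for the CKI by doxorubicin interaction, 33 (36.2%) for CKI against untreated MDA-MB-231, 32 (57.1%) for 5-FU against untreated, 38 (50.4%) for CKI plus 5-FU against 5-FU, 19 (42.1%) for CKI plus 5-FU against CKI and 19 (31.4%) for the CKI by 5-FU interaction. They are out of 47 members in A431 and 45 in MDA-MB-231, so several lie near the background. With the vehicle control as reference the CKI by doxorubicin interaction was called for 5 members, beside 21.1% of all genes. CKI plus 5-FU against CKI gave 0 with at least 10 counts in every library, 0 with offsets for GC content and length and 0 with these offsets and the replicate block.

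Leaving out 1 library at a time gave 41 to 42 for CKI plus doxorubicin against CKI, 5 to 6 for CKI plus doxorubicin against doxorubicin, 9 to 10 for the CKI by doxorubicin interaction, 6 to 10 for CKI against untreated MDA-MB-231, 6 to 9 for 5-FU against untreated, 20 to 22 for CKI plus 5-FU against 5-FU, 3 to 8 for the CKI by 5-FU interaction and 0 to 1 for CKI plus 5-FU against CKI. The lower ends of the last 2 are named with their libraries above. With the replicate block the counts were 41 for CKI plus doxorubicin against CKI, 5 against doxorubicin, 9 for the CKI by doxorubicin interaction, 21 for CKI plus 5-FU against 5-FU and 6 for the CKI by 5-FU interaction, each equal to the count without it. The correlation of same-numbered libraries averaged -0.009 in A431 and -0.053 in MDA-MB-231. The mean MX2 level was 155 CPM by library size alone and 142 CPM with RLE factors under CKI plus doxorubicin, 198 CPM and 180 CPM under doxorubicin, and 3.61 CPM by library size alone in untreated cells. Library size alone moved the median log2 fold change of all genes to 0.36 in doxorubicin against untreated, 0.26 in CKI plus doxorubicin against CKI, 0.11 in CKI against untreated A431 and 0.13 in 5-FU against untreated. The cause of these differences was not tested. Depth limits the members with the fewest reads: in MDA-MB-231 IFNB1 had 0 counts in every library, IFNL1 0 to 8, CXCL10 2 to 18 and CMPK2 7 to 36, and in A431 IFNB1 had 0 to 26.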

Other observations

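Other interferon-stimulated genes outside the 47 were also followed in the remaining comparisons. When CKI was added to doxorubicin in A431, 4 of 51 tested rose and 5 fell, with a median log2 fold change of -0.24. These shares (7.84% and 9.8%) were near the 6.89% and 8.03% of all genes. CXCL9, a chemokine, had 140, 172 and 159 counts under doxorubicin and 40, 37 and 26 counts with CKI added (log2 fold change -2.22, SE 0.20). It passed the filter on low counts with the libraries of doxorubicin alone, where it is higher, set aside. APOL1, a lipid-binding protein, and IDO1, a tryptophan-degrading enzyme, fell by 1.37 and 1.15 on the log2 scale, while GBP2 and SERPING1 had log2 fold changes of 1.13 and 1.11. TRIM34, also among the 4 that rose, had a log2 difference of 1.36. It passed the filter on low counts only through the doxorubicin libraries, so its difference is given without a test. When CKI was added to 5-FU in MDA-MB-231, 0 of 50 rose and 8 fell, with a median of -0.47, beside 5.26% and 4.51% of all genes. IDO1 and SERPING1 passed the filter on low counts only through the 5-FU libraries, and of the other 48 genes 7 (14.6%) fell. LGALS9, a galectin, and RTP4 fell by 3.82 and 1.24 on the log2 scale (SE 0.17 and 0.34). Under CKI alone in that line 9 of 50 fell and 1, LAMP3, rose (log2 fold change 2.25, SE 0.31), beside 2.21% and 3.76% of all genes. Under 5-FU alone LAMP3 and CD274, an immune checkpoint ligand, had log2 fold changes of 1.80 and 1.31 (SE 0.32 and 0.068) and 0 fell, beside 6.01% and 7.31% of all genes. LAMP3 was 48.5-fold lower in untreated MDA-MB-231 than in untreated A431, which had 317 to 379 counts. Its changes in MDA-MB-231 therefore start from few reads. Except for TRIM34, given without a test, the adjusted p of each gene named with a change was under 0.05 in edgeR's quasi-likelihood fit.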
